A study of Mus musculus with 15 samples.

Results

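The keratin genes that are used to tell basal from luminal mammary epithelium were followed across mouse tumour spheres treated with inhibitors of 4 signalling proteins. The members were Krt5, Krt14, Krt15, Krt17 and Krt6a, counted here as basal, and Krt7, Krt8, Krt18, Krt19 and Krt23, counted as luminal. They were chosen by name, with earlier results of these data known. Every probe set that the array's annotation assigned to 1 of them alone was taken. That gave 10 genes of the 18193 named on the array, with 17 of its 45101 probe sets. A further probe set, which the annotation shares between Krt14 and Krt17, was left out.

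The cells came from mammary tumours of FVB/N mice that carry MMTV-PyMT, the polyoma middle T oncogene behind the promoter of the mouse mammary tumour virus, which is active mainly in mammary epithelium. All 5 groups share this genotype. The cells grew as floating spheres (mammospheres) in serum-free medium with EGF, FGF and B27 for 10 days. They then received for 2 days either vehicle, the Notch pathway inhibitor DAPT (which blocks gamma-secretase), the MEK1 inhibitor U0126, the focal adhesion kinase (FAK) inhibitor TAE226 or the Src inhibitor PP2, so that spheres were collected at day 12. Each group had 3 samples, 1 Affymetrix Mouse430_2 array per sample, 15 arrays in all. The inhibitor doses, the age of the mice and the number of mice do not appear in the labels. The labels call the samples biological replicates without saying whether they were separate mice or separate cultures, so each p-value reflects only how much these samples vary. Spheres are a culture model without the tumour's stroma, and each sample is a bulk of cells in which fewer cells of a type and less RNA per cell cannot be told apart.

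Keratins are the intermediate filament proteins of epithelial cells, and a filament is built from pairs of a type I and a type II keratin. Krt5 (type II) with Krt14 (type I) is the pair of basal and myoepithelial cells of the mammary gland, and Krt8 (type II) with Krt18 (type I) is the pair of simple, luminal epithelium. Krt6a (type II) and Krt17 (type I) are known from wounded, stressed and hair follicle epithelium, Krt15 (type I) from basal cells of stratified epithelium and the hair follicle, Krt7 (type II) and Krt19 (type I) from simple and ductal epithelium, and Krt23 (type I) from simple epithelium. The type I genes of this set lie on chromosome 11 and the type II genes on chromosome 15, together with Krt18, the type I gene that sits beside Krt8.

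The stretches just upstream of 4 of these genes are shown so that the genes described below can be seen beside each other: Krt5 and Krt7, whose RNA moved with treatment, and the neighbours Krt8 and Krt18, whose measured RNA had the narrowest range. They are RefSeq sequences of build GRCm38.p6, the 250 bases before the annotated start, 5′ to 3′ on the gene's own strand. The positions are chr15:101712906-101713155 (minus strand) for Krt5, chr15:101412153-101412402 (plus strand) for Krt7, chr15:102004343-102004592 (minus strand) for Krt8 and chr15:102027966-102028215 (plus strand) for Krt18. Capitals mark matches, on either strand, to 5 short motifs.
Krt5: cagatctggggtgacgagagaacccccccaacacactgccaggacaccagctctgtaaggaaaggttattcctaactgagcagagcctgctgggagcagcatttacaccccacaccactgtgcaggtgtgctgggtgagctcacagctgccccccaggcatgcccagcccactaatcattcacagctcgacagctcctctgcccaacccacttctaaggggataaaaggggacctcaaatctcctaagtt
Krt7: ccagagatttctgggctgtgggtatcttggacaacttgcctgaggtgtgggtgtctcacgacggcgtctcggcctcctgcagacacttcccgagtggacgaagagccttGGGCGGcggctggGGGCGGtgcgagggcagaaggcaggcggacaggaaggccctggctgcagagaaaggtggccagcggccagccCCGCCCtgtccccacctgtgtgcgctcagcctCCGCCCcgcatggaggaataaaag
Krt8: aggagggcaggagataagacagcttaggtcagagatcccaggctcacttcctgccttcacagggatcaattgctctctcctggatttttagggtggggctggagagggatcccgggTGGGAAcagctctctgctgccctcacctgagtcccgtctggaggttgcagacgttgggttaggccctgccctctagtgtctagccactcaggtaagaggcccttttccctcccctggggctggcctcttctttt
Krt18: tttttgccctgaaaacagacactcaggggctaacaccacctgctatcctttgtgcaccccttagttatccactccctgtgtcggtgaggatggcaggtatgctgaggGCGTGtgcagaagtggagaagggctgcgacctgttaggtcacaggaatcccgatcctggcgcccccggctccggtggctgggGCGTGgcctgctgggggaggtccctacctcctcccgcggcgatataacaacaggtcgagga

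The motifs searched were a TATA box (TATAAA), an AP-1 site (TGACTCA), the core bound by the Notch partner RBPJ (TGGGAA), the core bound by the aryl hydrocarbon receptor AHR (GCGTG) and an SP1 box (GGGCGG), none of which overlaps another in these windows. Of the 32851 upstream windows of this length in the table, 12.4% held the TATA box, 4.46% the AP-1 site, 21.6% the RBPJ core, 28.2% the AHR core and 32.7% the SP1 box. The Krt7 window held 4 SP1 boxes, 2 on each strand, the Krt8 window 1 RBPJ core and the Krt18 window 2 AHR cores. The Krt5 window held none of them. A match describes the letters and nothing more. Of the 10 members, 6 had a window in the table, and the window of Krt14 does not begin at its annotated start and is not shown.

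The values are MAS5 signals, an array's brightness for a probe set on a linear scale after the array was scaled to a trimmed mean of 500. Signals of different genes are not compared, since probes differ in how well they bind. Array medians ran from 65.7 to 90.8, and a probe set below its array's median is called dim here. Each gene was read from its brightest probe set, with those whose name ends in _x_at used only where there was no other. The 11412 genes above the median on at least 3 arrays were tested with limma, with p-values adjusted over all of them and 0.05 as the threshold. Of the 10 members 9 were tested, and Krt23 was above the median on only 2 arrays. Centring the arrays on their medians in place of the trimmed mean moved the median change of all genes to -0.12 for DAPT, -0.08 for U0126, -0.24 for TAE226 and -0.20 for PP2 on the log2 scale. With it, the share of calls that were rises went from 49.4% to 22% for DAPT, from 47.7% to 33.3% for U0126, from 48.8% to 9.17% for TAE226 and from 49.4% to 21.8% for PP2. Quantile normalization gave shares of 47.1%, 47.8%, 44.5% and 46.8% in the same order, with median changes of -0.003, -0.008, -0.019 and -0.009. The 3′ to 5′ ratio of the actin control probe sets, a sign of RNA length, was 1.57 ± 0.04 (SD, n = 3) under PP2 and 1.42 ± 0.06 in vehicle, with group means of 1.28 to 1.35 for the other 3 inhibitors. Running numbers in the labels put vehicle, DAPT and U0126 in one consecutive run and TAE226 and PP2 in a later one, group after group. The order given by these numbers and the groups therefore cannot be told apart.

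Over the 5 groups, all 9 tested keratins differed by limma's F-test, against 73.2% of all genes tested. The gap between the highest and the lowest group mean was 3.37 log2 units for Krt6a, 2.51 for Krt17 and 2.15 for Krt5, with 98.5%, 96.9% and 95.7% of genes below. Krt7 (1.26), Krt14 (1.16) and Krt19 (0.98) stood at 87.6%, 85.3% and 80.5%. For Krt15, whose lowest group was dim, the gap is a bound, at least 46.6-fold. The narrowest gaps were those of the simple-epithelial pair, with 0.40 for Krt8 and 0.53 for Krt18, wider than 34.3% and 51.3% of genes. Both were read near the top of the brightness scale, with 87 to 246 of the 45101 probe sets brighter than that of Krt8 on any array and 115 to 326 brighter than that of Krt18, and whether signals there are compressed was not tested. The adjusted p of the F-test ran from 2.36e-15 for Krt6a to 0.000877 for Krt8.

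Against the vehicle spheres, 5 of the 9 tested keratins passed the threshold under DAPT, where 34.6% of all genes did, 7 under U0126 (40.9%), 7 under TAE226 (31.1%) and 5 under PP2 (52.8%). The PP2 share was thus close to that of all genes, while the other 3 were above it. The members were chosen with earlier results of these data known, so these shares are not an independent test. The SE was 0.06 to 0.09 for all tested keratins but Krt15 and Krt17, below the median of 0.0976 over all genes, so small changes could pass. The 4 comparisons use the same 3 vehicle arrays. Among the basal keratins, 2 rose and 1 fell under DAPT, 3 rose and 2 fell under U0126, 1 rose and 3 fell under TAE226, and none rose and 4 fell under PP2. Their median log2 changes were -0.08, 0.58, -0.23 and -1.03. Among the 4 tested luminal keratins, none rose and 2 fell under DAPT, 2 rose and none fell under U0126, 2 rose and 1 fell under TAE226, and none rose and 1 fell under PP2, with medians of -0.23, 0.20, 0.23 and 0.02. Counted by arrays alone, the 3 treated and 3 vehicle arrays did not overlap for 6 of the 9 under DAPT (46.5% of all genes), 7 under U0126 (48.3%), 6 under TAE226 (43.3%) and 7 under PP2 (59%). The median over all genes tested lay between 0.00 and 0.02 in each. Of all genes tested, 17.1% rose and 17.5% fell under DAPT, 19.5% and 21.4% under U0126, 15.2% and 15.9% under TAE226, and 26.1% and 26.7% under PP2.

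**Figure D1:**
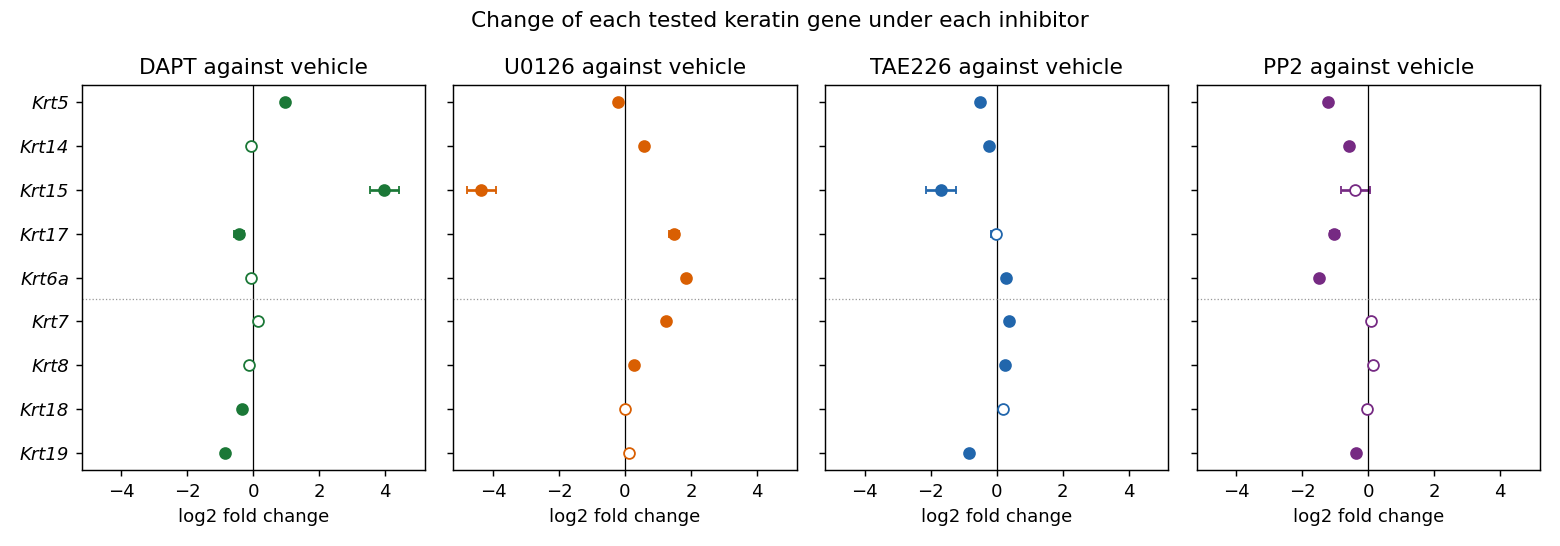
Log2 fold change of each tested keratin gene (rows; basal above the dotted line, luminal below) under each inhibitor against vehicle, with SE bars and filled points where limma's adjusted p was under 0.05. Krt15 lies at 3.97 under DAPT, and its point under U0126 is drawn from a dim signal, for which only a bound of at least 2.97-fold lower holds; the TAE226 rises of Krt6a, Krt7 and Krt8 did not pass the threshold when arrays were centred on their medians.

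Krt5, the type II keratin of basal cells, gave a signal of 732.3, 703.3 and 651.6 on the 3 vehicle arrays. It read 1235.7, 1299.8 and 1503.2 under DAPT and 279.9, 329.9 and 296.8 under PP2. All 3 DAPT arrays were above, and all 3 PP2 arrays below, every vehicle array. The log2 mean went from 9.44 ± 0.09 (SD, n = 3) in vehicle to 10.39 ± 0.15 under DAPT, a rise of 0.95 (SE 0.09) or 1.93-fold, with limma's adjusted p = 1.91e-07. Under PP2 it was 8.24 ± 0.12, a 2.3-fold fall with adjusted p = 3.63e-09. TAE226 gave 483.3, 516.5 and 482.9, a 1.41-fold fall (adjusted p = 0.000294) with no overlap. U0126 gave 620.3, 574.7 and 596.3, just below vehicle, a fall of 0.22 on the log2 scale with adjusted p = 0.0488. That last call was near the threshold and was lost under 15 of the 24 other settings, with adjusted p over the settings from 0.0337 to 0.161. It was lost without vehicle replicate 1 or 2, DAPT replicate 2, PP2 replicate 3, or any 1 of the U0126 or TAE226 arrays. The order for Krt5 was DAPT, vehicle, U0126, TAE226 and PP2, and each neighbour in it passed the test against the next. The step from U0126 to TAE226 was lost without U0126 replicate 1 (adjusted p = 0.0631) or TAE226 replicate 1 (0.0555) or 3 (0.0568).

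Its partner Krt14, the type I keratin of basal cells, read 9781.6, 9284.6 and 10777.7 in vehicle. Under DAPT it read 9477.5, 9572.6 and 9078.7, which overlapped vehicle, and the change of -0.08 (SE 0.07) did not pass the threshold (adjusted p = 0.378). U0126 gave 15684.1, 15298.5 and 13687.6, all above vehicle. This was a 1.5-fold rise, 0.58 on the log2 scale with adjusted p = 3.01e-06. PP2 gave 6301.7, 7027.9 and 6671.6, all below vehicle, a 1.49-fold fall with adjusted p = 1.97e-06. TAE226 gave 7986.1, 9005.8 and 8383.5, a fall of 0.23 on the log2 scale with adjusted p = 0.015. That call was lost without vehicle replicate 3 (adjusted p = 0.0762) or TAE226 replicate 1 (0.0617) and with the mean of all probe sets (0.206). In the order of levels U0126 came first and PP2 last. Between them, vehicle did not differ from DAPT, nor DAPT from TAE226, beyond the spread (adjusted p = 0.378 and 0.132). TAE226 against DAPT did pass with quantile normalization (0.0211) and with the mean of all probe sets (0.0396). Krt5 and Krt14, a filament pair, had changes of 0.95 and -0.08 under DAPT, and -0.22 and 0.58 under U0126, while both fell under PP2.

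Krt6a, the type II keratin of wounded and hyperproliferative epithelium, had a signal of 1545.2, 1497.0 and 1560.6 in vehicle. Under U0126 it read 5764.3, 5557.4 and 5394.8, and under PP2 520.8, 584.9 and 518.3. The groups lay far apart, with U0126 above and PP2 below every array of the other groups. Under U0126 the log2 mean went from 10.58 ± 0.03 to 12.44 ± 0.05, a 3.63-fold rise (1.86, SE 0.06, adjusted p = 3.03e-13). Under PP2 it was 9.08 ± 0.10, a 2.84-fold fall with adjusted p = 3.56e-12. DAPT gave 1527.8, 1374.5 and 1458.4, and its change of -0.08 did not pass (adjusted p = 0.345). TAE226 gave 1859.1, 1815.6 and 1981.5, above vehicle by 0.30 on the log2 scale with adjusted p = 0.00132, but by 0.04 with adjusted p = 0.725 when arrays were centred on their medians. PP2 spheres against U0126 spheres differed 10.3-fold, with adjusted p = 8.58e-17.

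Krt17, the type I keratin often found with Krt6a, moved in the same directions under U0126 and PP2. It read 523.5, 576.5 and 398.4 in vehicle, a wider spread than for Krt6a. U0126 gave 1279.8, 1374.2 and 1493.8, and PP2 gave 235.2, 201.1 and 300.8, neither overlapping vehicle. The rise under U0126 was 2.8-fold (1.48, SE 0.14, adjusted p = 2.63e-07) and the fall under PP2 was 2.04-fold (adjusted p = 1.11e-05). Averaged with the other probe set of Krt17, which was dim on all 15 arrays, neither change passed (adjusted p = 0.0809 and 0.169). DAPT gave 344.7, 409.8 and 348.7, overlapping vehicle, and a fall of 0.43 with adjusted p = 0.0263. That call was lost without vehicle replicate 1 (0.0843) or 2 (0.126), without DAPT replicate 1 (0.0833) or 3 (0.0846), and with the mean of the probe sets (0.399). TAE226 gave 511.2, 469.3 and 470.0, within the range of vehicle (adjusted p = 0.894).

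Krt15, a type I keratin of basal and hair follicle cells, had the widest range of the 9 tested keratins, also when taken at its bound. Its signal was 234.5, 227.9 and 226.1 in vehicle and 3733.3, 3549.8 and 3527.9 under DAPT. Under U0126 it was 35.1, 6.1 and 6.7, dim on all 3 arrays. The DAPT arrays thus stood at a 15.7-fold higher level than vehicle, in all 3 samples (3.97 on the log2 scale, SE 0.45, adjusted p = 2.67e-06). For U0126 the level was dim and only a bound can be given, taken against the array median. It was at least 2.97-fold lower than vehicle (adjusted p = 6.24e-07) and at least 46.6-fold lower than DAPT. TAE226 gave 92.5, 81.3 and 47.9, dim on 2 of the 3 arrays. It was called lower than vehicle with adjusted p = 0.00806, no array reached the vehicle level, and the fitted fold of 3.23 rests largely on dim signals. PP2 gave 165.3, 180.5 and 179.0, all below vehicle, and the change of -0.39 did not pass (adjusted p = 0.483). The dim U0126 arrays, whose log2 SD was 1.42 against 0.03 in vehicle, enter the spread that all groups share in the fit. Without them the SE went from 0.45 to 0.18 and adjusted p was 2.97e-10 for DAPT, 4.67e-06 for TAE226 and 0.0732 for PP2. In a fit of PP2 and vehicle alone it was 0.0253.

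**Figure D2:**
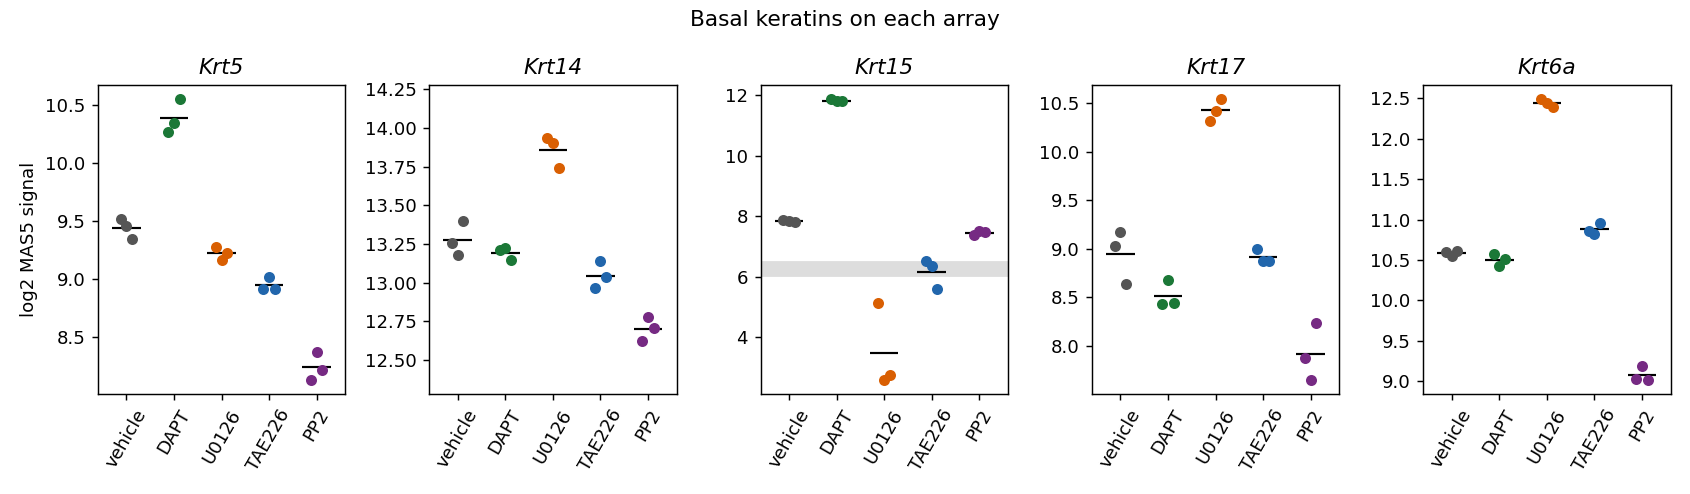
Log2 MAS5 signal of the 5 basal keratin genes on each of the 15 arrays, with points for arrays, horizontal lines for group means and a separate vertical scale per gene; the grey band in the Krt15 panel spans the array medians, log2 6.04 to 6.50. DAPT arrays are highest for Krt5 and Krt15, U0126 arrays are highest for Krt14, Krt17 and Krt6a, and PP2 arrays are lowest for every gene shown but Krt15.

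Krt7, a type II keratin of simple epithelium, read 5520.5, 5745.6 and 5780.1 in vehicle. Under U0126 it read 13735.3, 14672.0 and 12502.0, more than any array of the other groups. The log2 mean went from 12.47 ± 0.04 to 13.73 ± 0.12 (SD, n = 3), a 2.4-fold rise (1.26, SE 0.07, adjusted p = 4.85e-10). TAE226 gave 6676.1, 8149.9 and 7422.4, a 1.3-fold rise with adjusted p = 0.000807 that became 0.13 with adjusted p = 0.407 under median centring. Under DAPT (0.14, adjusted p = 0.155, but 0.0236 with quantile normalization) and PP2 (0.07, adjusted p = 0.419) the change did not pass, and the PP2 value was -0.15 under median centring. The order of levels was U0126, TAE226, then DAPT, PP2 and vehicle, of which the last 3 did not differ between neighbours beyond their spread.

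Krt8, the type II keratin of luminal cells, read between 14272.2 and 21165.0 on all 15 arrays, with vehicle at 16542.4, 15263.3 and 15180.7. U0126 gave 18754.0, 21165.0 and 17573.6, a 1.22-fold rise with adjusted p = 0.00801. The U0126 call was lost without U0126 replicate 2 (adjusted p = 0.0511) and under median centring (0.156). TAE226 gave 16304.6, 19952.3 and 20403.7, which overlapped vehicle, a 1.2-fold rise with adjusted p = 0.0182. It was lost under median centring (0.01, adjusted p = 0.953), in a fit of these groups alone (0.056), and without vehicle replicate 2 (0.0602) or 3 (0.0569) or TAE226 replicate 2 (0.0815) or 3 (0.0949). DAPT (-0.12, adjusted p = 0.293) and PP2 (0.15, adjusted p = 0.124) did not pass. PP2 did pass with quantile normalization (0.0243), in a fit of PP2 and vehicle alone (0.035) and without TAE226 replicate 1 (0.0467). No neighbours in the order of the 5 groups differed beyond their spread.

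Krt18, the type I partner of Krt8, read 15451.3, 15067.4 and 15825.7 in vehicle. DAPT gave 12410.2, 12396.4 and 11700.3, below every array of the other groups. This was a 1.27-fold fall (-0.34, SE 0.08, adjusted p = 0.0028). U0126 (0.01, adjusted p = 0.958), TAE226 (0.19, adjusted p = 0.0805) and PP2 (-0.03, adjusted p = 0.753) did not pass. The U0126 and PP2 values changed sign with other settings, and TAE226 passed without TAE226 replicate 1 (adjusted p = 0.00484) and with quantile normalization (0.0019).

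Krt19, a type I keratin of ductal and luminal cells, read 3415.9, 3409.5 and 3751.9 in vehicle. It read 2037.8, 1925.3 and 1832.5 under DAPT, 1953.7, 2100.9 and 1881.1 under TAE226 and 2555.8, 2790.9 and 2854.6 under PP2. All 9 of these arrays were below every vehicle array. Limma gave a 1.82-fold fall under DAPT (-0.87, SE 0.06, adjusted p = 1.53e-08), a 1.78-fold fall under TAE226 (adjusted p = 4.13e-08) and a 1.29-fold fall under PP2 (adjusted p = 0.000114). U0126 gave 3981.7, 3660.4 and 3765.2, overlapping vehicle (0.11, adjusted p = 0.185). PP2 arrays lay between the vehicle arrays and those of DAPT and TAE226, from which they differed with adjusted p = 7.97e-06 and 1.35e-05, while the difference of TAE226 from DAPT was 0.03 (adjusted p = 0.758), and -0.09 under median centring.

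Krt23, a type I keratin of simple epithelium, gave a signal of 20.2, 81.0 and 60.1 in vehicle and was not tested in the fit above. Its readings were 44.7, 13.0 and 34.6 under DAPT, 10.1, 14.8 and 45.8 under U0126, 71.2, 22.7 and 76.5 under TAE226, and 95.5, 84.8 and 78.4 under PP2. It was above the array median on 1 vehicle array and 1 PP2 array, and on no array of the other groups. When all 18193 genes were fitted without the filter, no inhibitor differed from vehicle (adjusted p between 0.194 and 0.944), and PP2 was higher than U0126 with adjusted p = 0.015 on values near or below the median.

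**Figure D3:**
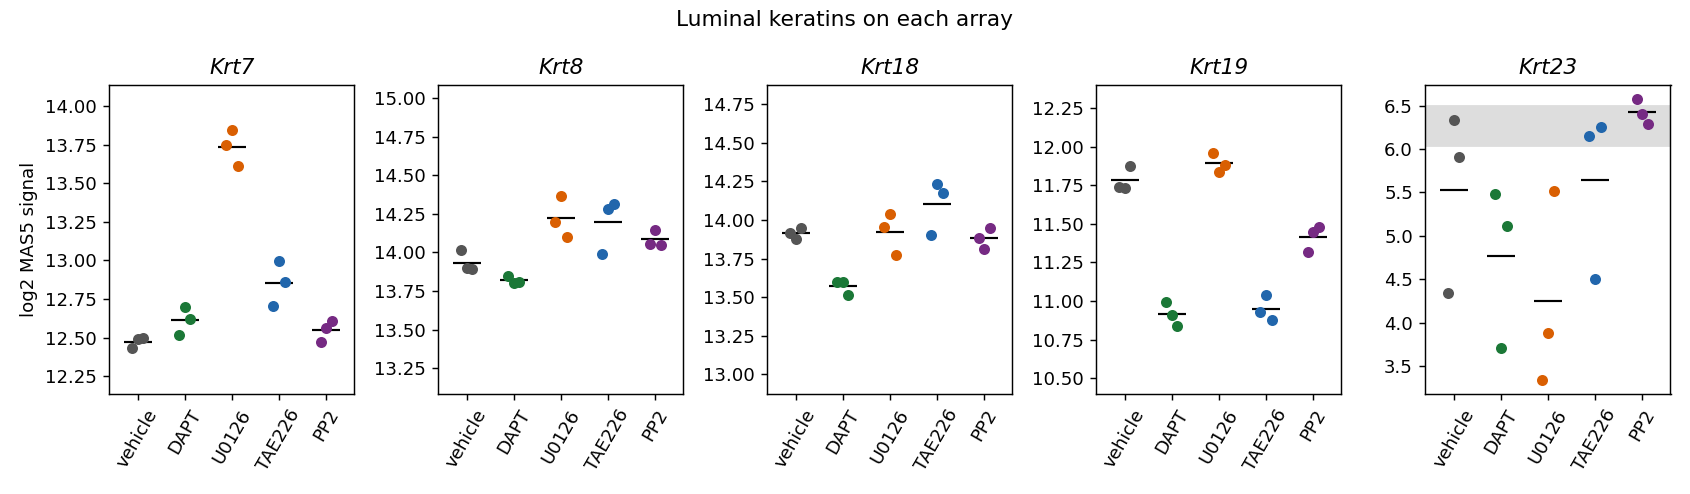
Log2 MAS5 signal of the 5 luminal keratin genes on each of the 15 arrays, with points for arrays, horizontal lines for group means and a separate vertical scale per gene; the grey band in the Krt23 panel spans the array medians, log2 6.04 to 6.50. U0126 arrays stand above all others for Krt7, DAPT arrays below all others for Krt18, and DAPT and TAE226 arrays lowest for Krt19.

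The inhibitors were also compared with each other. Between U0126 and DAPT all 9 tested keratins differed, 7 higher under U0126 and Krt5 and Krt15 lower. Of all genes 44.7% passed there, 21.6% higher and 23.2% lower. For Krt14, 1 of its 3 probe sets did not pass there when tested on its own (0.15, adjusted p = 0.411). Between PP2 and DAPT 8 differed (39.7% of all genes, 18.1% higher and 21.6% lower under PP2), with all 5 basal keratins lower under PP2, 4.45-fold for Krt5, 20.6-fold for Krt15 and 2.69-fold for Krt6a, and Krt8, Krt18 and Krt19 higher. The call of Krt8 was lost under median centring (adjusted p = 0.227), quantile normalization (0.0938) and without PP2 replicate 2 (0.0581), that of Krt18 under median centring (0.142), and that of Krt17 with the mean of its probe sets (0.74). Another of the 3 probe sets of Krt14 did not pass between PP2 and DAPT (-0.11, adjusted p = 0.307). Between PP2 and U0126 7 differed (55.9%, 28% higher and 27.8% lower under PP2), with Krt15 the only one higher under PP2, at least 2.26-fold. Krt17 was 5.69-fold and Krt7 2.28-fold lower under PP2 than under U0126. Between TAE226 and DAPT 6 differed (22.6%, 11.2% higher and 11.4% lower under TAE226), and Krt5 was 2.72-fold lower under TAE226 while Krt18 was 1.45-fold higher. Between TAE226 and U0126 7 differed (37.2%, 19.5% higher and 17.7% lower under TAE226), 6 of them lower under TAE226, such as Krt6a (2.96-fold) and Krt19 (1.92-fold). Krt15 was called higher under TAE226, but it was dim on all 3 U0126 arrays and 2 of the 3 TAE226 arrays, so no fold is given. With the mean of its probe sets, the Krt17 call was lost there (adjusted p = 0.111) and between PP2 and TAE226 (0.152). Between PP2 and TAE226, the inhibitors of Src and FAK, 8 differed (43.6%, 20.4% higher and 23.2% lower under PP2), with Krt6a 3.49-fold and Krt5 1.64-fold lower and Krt19 1.38-fold higher under PP2. Krt18 between PP2 and TAE226 lost its call under median centring (adjusted p = 0.223) and without TAE226 replicate 2 (0.158) or 3 (0.11) or PP2 replicate 1 (0.0691) or 2 (0.114). That call was also lost without the filter (0.0552), without the variance trend (0.059) and in a fit of the 2 groups alone (0.0609). Krt7 between TAE226 and DAPT lost its call under median centring (0.524) and without DAPT replicate 1 (0.119) or 3 (0.0587) or TAE226 replicate 2 (0.147) or 3 (0.0684). The same held without the variance trend (0.0558) and in the 2 groups alone (0.0506). Median centring also ended the calls of Krt8 between TAE226 and DAPT (0.105) and Krt7 between PP2 and TAE226 (0.0814). Krt15 between PP2 and TAE226 lost its call without TAE226 replicate 3 (0.112) or any 1 PP2 array (0.0521 to 0.0611), and without the variance trend (0.0553). In the fit without the dim U0126 arrays, adjusted p of Krt15 between PP2 and TAE226 was 2.76e-05. Median centring moved the share of rises among all calls from 49.4% to 26.8% for TAE226 against DAPT, from 45.6% to 30.4% for PP2 against DAPT, from 52.3% to 20.4% for TAE226 against U0126 and from 50.2% to 32.8% for PP2 against U0126. Quantile normalization gave 48.4%, 45.8%, 48.6% and 48.7% in the same order.

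The changes of partners that build filaments can be set side by side. For Krt6a and Krt17, U0126 gave 1.86 and 1.48 and PP2 gave -1.50 and -1.03. For Krt8 and Krt18 the changes lay between -0.34 and 0.29 in all 4 comparisons. The difference between partners was not tested, since each is read from its own probes. Some members are neighbours on the chromosome. Krt15 and Krt19 are adjacent protein-coding genes on chromosome 11, and under DAPT Krt15 rose 15.7-fold while Krt19 fell 1.82-fold. Krt6a and Krt5 are adjacent on chromosome 15, and under U0126 they changed by 1.86 and -0.22.

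**Figure D4:**
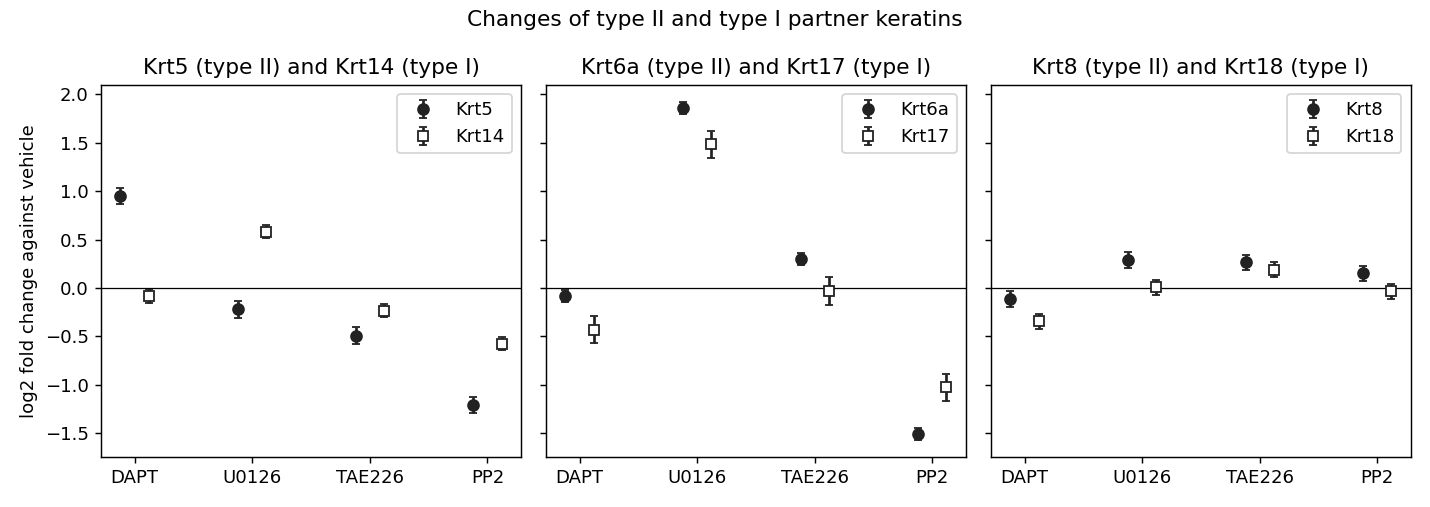
Log2 fold change against vehicle, with SE bars, of 3 type II keratins (filled circles) and the type I keratin each is known to pair with (open squares), under each of the 4 inhibitors. Krt5 and Krt14 are at 0.95 and -0.08 under DAPT, where the probe sets of Krt14 disagree, Krt6a and Krt17 share the direction of change under U0126 and PP2, and Krt8 and Krt18 stay between -0.34 and 0.29; the small positive values under TAE226 fall or turn when arrays are centred on their medians.

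Several members could be read more than once. When all 24669 probe sets above the filter were tested one by one, the 3 probe sets of Krt6a gave 1.86, 1.89 and 2.36 under U0126 and -1.50, -0.98 and -2.16 under PP2, all called. Of all probe sets, 33.3% were called under U0126 and 48.9% under PP2. The TAE226 change of Krt6a passed in 1 of the 3 (28.6% of all probe sets were called). For Krt14, all 3 rose under U0126 (0.58, 0.64 and 0.45) and all 3 fell under PP2 (-0.58, -0.46 and -0.21). The last value in each is from a brighter probe set ending in _x_at, which was not used for the gene. Under DAPT, where 29.5% of probe sets were called, they disagreed, with -0.08 and -0.10 not passing and 0.49 passing (adjusted p = 0.011), so no direction is given for Krt14 there. The fall of Krt14 under TAE226 passed in 1 of its 3 probe sets. For Krt8 the 3 gave 0.29, 0.26 and 0.24 under U0126 and 0.26, 0.24 and 0.26 under TAE226. Keratins of 1 type are alike in sequence, so a probe set named for Krt6a can also bind Krt6b, and those of Krt14 can bind Krt16 and Krt17, most of all where the name ends in _x_at.

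**Figure D5:**
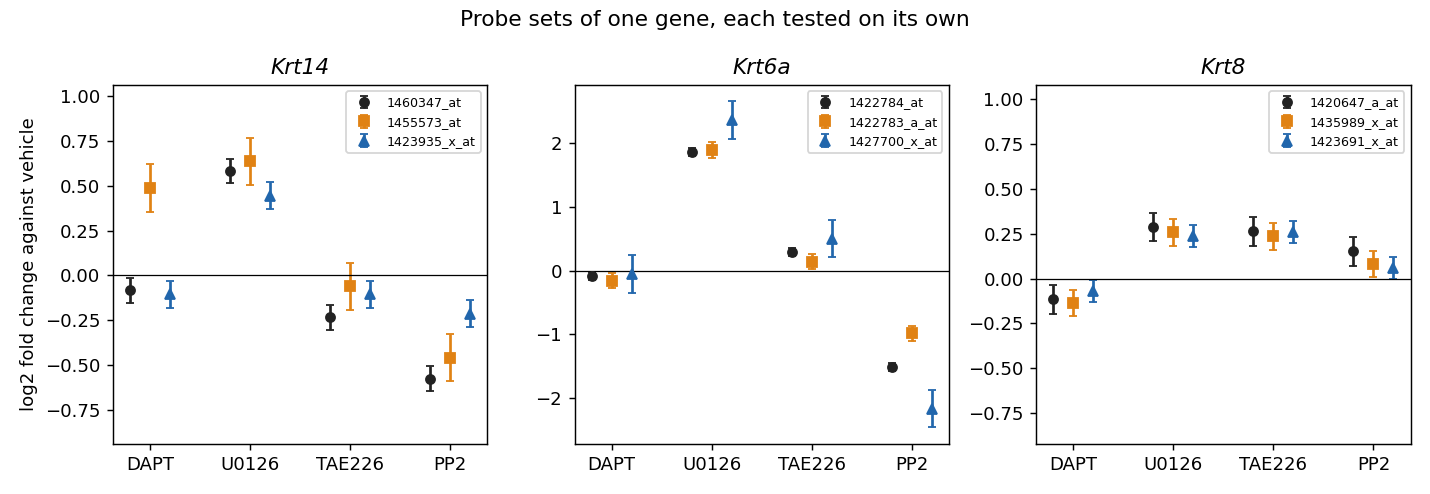
Log2 fold change against vehicle, with SE bars, of each of the 3 probe sets of Krt14, Krt6a and Krt8 tested on its own. The probe sets of Krt6a share the direction of change under U0126 and PP2, and those of Krt14 disagree under DAPT, at -0.08, 0.49 and -0.10.

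Other basal and myoepithelial markers were set beside the keratins, from a list of 12 of which 9 were tested. The contractile genes Myh11, Cnn1 and Tagln were dim throughout. Under DAPT 6 rose and none fell (median 0.73, and 5 rises and no fall under median centring), led by the oxytocin receptor Oxtr (2.46), the myosin light chain kinase Mylk (1.33), Trp63 (1.14), which encodes the basal regulator p63, and the matrix protein gene Sparc (0.73). Under U0126 5 rose and 2 fell (median 0.32, and 3 and 2 under median centring), with Oxtr at 1.59, the mesenchymal filament gene Vim at 1.13, Trp63 at -0.66 and the transcription factor gene Snai2 at -0.62. TAE226 gave 5 rises and 1 fall (median 0.30, and 2 and 1 under median centring), among them Oxtr at 1.71, Mylk at 0.60, the smooth muscle actin gene Acta2 at 0.82 and Trp63 at -0.48. The Acta2 call (adjusted p = 0.0443) was lost under median centring (0.073), without vehicle replicate 2 (0.231) and without any 1 TAE226 array (0.0509 to 0.155), among other settings. PP2 gave 3 rises and 4 falls (median -0.48, and no rise and 4 falls under median centring), with Sparc at -1.63, Snai2 at -0.87, Mylk at -0.58 and Trp63 at -0.48. With the mean of its probe sets, Trp63 did not pass under U0126 (-0.51, adjusted p = 0.0628), TAE226 (-0.38, 0.188) or PP2 (-0.06, 0.841), nor Mylk under PP2 (-0.06, 0.705). Beside these counts, 17.1% of all genes tested rose and 17.5% fell under DAPT, and 19.5% and 21.4% under U0126. The shares were 15.2% and 15.9% under TAE226, and 26.1% and 26.7% under PP2.

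Of 15 luminal markers and regulators 12 were tested. Under DAPT 4 rose and 2 fell (median -0.10, and 2 and 2 under median centring), with the luminal regulator Gata3 at 0.59, the progenitor receptor Kit at 0.58, the adhesion gene Epcam at -0.38 and Prom1 at -0.33. Under U0126 1 rose and 5 fell (median -0.03), among them the tight junction gene Cldn4 at 0.86, the regulators Ehf at -0.74 and Elf5 at -0.65, and the mucin gene Muc1, at least 2.3-fold lower. TAE226 gave 4 rises and 2 falls (median -0.05, and 1 and 4 under median centring), with Cldn4 at 1.01, Elf5 at -0.56, Cldn3 at 0.35 and Kit at 0.28, the last pair not past the threshold under median centring. PP2 gave 6 rises and 2 falls (median 0.27, and 4 and 3 under median centring), with Kit at 1.75, Gata3 at 1.25 and Prom1 at -1.59. The estrogen receptor gene Esr1 was also called lower under PP2 (adjusted p = 0.0162), but it was dim on all arrays of both groups, so no fold is given, and the call was lost without PP2 replicate 1 (0.0889). Rises and falls over all genes tested were 17.1% and 17.5% under DAPT, and 19.5% and 21.4% under U0126. They were 15.2% and 15.9% under TAE226, and 26.1% and 26.7% under PP2.

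Keratin filaments are tied to the cell surface by desmosomes and hemidesmosomes, and 16 of 17 listed genes of these were tested. Under DAPT 5 rose and 5 fell (median 0.11, and 4 and 6 under median centring), with the desmosomal plaque gene Pkp1 at -1.16 and the hemidesmosome genes Col17a1 at 0.96 and Dst at 0.87, and the desmoglein gene Dsg2 at -0.53. Under U0126 5 rose and 6 fell (median -0.02, and 3 and 5 under median centring), with Col17a1 at 0.59, the integrin gene Itgb4 at -0.57, the desmocollin gene Dsc3 at -0.52 and Perp at 0.50. TAE226 gave 4 rises and 3 falls (median 0.00, and 1 and 8 under median centring), with Dst at 0.69, Dsg2 at -0.45, the desmocollin gene Dsc2 at -0.38 and the envoplakin gene Evpl at 0.37. Of these the Dsc2 call was lost without vehicle replicate 1 (adjusted p = 0.0694) or 2 (0.121) or TAE226 replicate 3 (0.0843), and the Evpl call under median centring (0.49) and without vehicle replicate 2 (0.143) or 3 (0.0948) or TAE226 replicate 2 (0.1) or 3 (0.135), among others. PP2 gave 2 rises and 7 falls (median -0.15, and no rise and 12 falls under median centring). Among these falls were Pkp1 at -1.38, Dsc3 at -1.23, Dsc2 at -1.12 and the desmoplakin gene Dsp, which links keratin to desmosomes, at -1.02. With the mean of all probe sets, Dsc3 under U0126 (-0.17, adjusted p = 0.639) and PP2 (-0.49, adjusted p = 0.104), and Dsg2 under DAPT (-0.21, adjusted p = 0.0661) and TAE226 (-0.18, adjusted p = 0.102), did not pass. The shares of all genes tested that rose and fell were 17.1% and 17.5% under DAPT, and 19.5% and 21.4% under U0126. They were 15.2% and 15.9% under TAE226, and 26.1% and 26.7% under PP2.

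Markers of cells other than epithelium were low. Of 8 macrophage and leukocyte markers 4 were dim on all 15 arrays, Ptprc and Lyz2 among them, and the summed signal was 292 to 363 in vehicle, 335 to 402 under DAPT, 343 to 377 under U0126, 365 to 396 under TAE226 and 455 to 538 under PP2. In the PP2 arrays, where 26.1% of all genes tested rose, 2 of the 4 tested markers did. These were Cd52, by at least 2.11-fold, and Adgre1, by at least 1.5-fold. Of 8 fibroblast markers 6 were dim on all arrays, with Col1a1, Col3a1 and Dcn among them. The same held for 5 of 6 endothelial markers, Pecam1 and Cdh5 included, and for 4 of 5 adipocyte markers on the array. The summed signal over all groups was 183 to 355 for fibroblast, 98.7 to 321 for endothelial and 37 to 242 for adipocyte markers, the highest adipocyte sum being under U0126, where the lipase gene Lpl was at least 1.56-fold higher. The part of these markers and of the actin ratio, whose group mean was also highest under PP2, in the falls of 4 basal keratins there was not tested.

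The genes whose profile over the 15 arrays lay nearest to that of Krt15, after centring each gene on its mean, were Apoe, Lao1 and Pi15, at root mean square differences of 1.57, 1.69 and 1.75 log2 units. None came close to the DAPT rise of Krt15: Lao1 rose by 1.59 and Pi15 by 1.41, and Apoe was at 0.18 (adjusted p = 0.82). All 3 were dim under U0126. For Krt23, the luminal member with the widest range, the nearest were Wipf3 (0.708), Scin (0.722) and Zfp882 (0.729). Krt23 itself was near or below the array medians, while Scin and Zfp882 were above them in some groups and Wipf3 under PP2 (log2 mean 6.94). Since Krt23 was not tested, the nearest genes to Krt7 were taken as well, after its values had been seen. They were Vim (0.131), Mmd (0.139) and the transcription factor gene Klf5 (0.147), which rose under U0126 by 1.13, 1.21 and 1.15, beside 1.26 for Krt7.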

How the data were processed

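RNA levels were measured on Affymetrix Mouse430_2 arrays in 15 mammosphere samples, 3 for each of 5 treatments named in the labels. Per the labels' protocols, RNA was extracted with Trizol and RNeasy columns, and 250 ng of total RNA was labelled with biotin by 3′ in vitro transcription. The deposited values are intensities on a linear scale, made by MAS5 in Affymetrix Expression Console, per the submitters' processing notes. Their versions were not stated in the sources used here. Each array's mean after trimming 2% at each end was 500.

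Of 45101 probe sets, 64 were controls, 34945 had 1 gene in the platform annotation, 932 several and 9160 no listed gene. Symbols of 34741 were updated by Entrez ID to the RefSeq table of build GRCm38.p6 and 204 were kept. Each gene was read from its probe set with the highest mean, and probe sets ending in _x_at were used only where there was no other. A limma model (version 3.58.1, R 4.3.3) with a mean for each group was fitted to the log2 intensities of all 15 arrays, without a pseudocount and with an intensity trend in the variance. Residual degrees of freedom were 10, to which the moderation added 6.4. The two-sided p-values were adjusted over 11412 genes by the Benjamini-Hochberg method, with a threshold of 0.05. Adjusted p-values all come from limma. The median SE was 0.0976, and the number of arrays limits the precision. A fold against a group that was dim on all 3 arrays is a bound, computed against the array medians, or the gene's own signal where higher. The fit was tested on simulated data.

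The members and lists were chosen with earlier results of these data known. All members are named, with up to 4 genes of each other list that passed the threshold with the greatest change, and the 3 genes nearest to the basal and the luminal member of widest range. The lists were the basal and luminal keratins, other keratins, basal and myoepithelial markers, luminal markers and regulators, desmosome and keratin anchorage, squamous cornification, and macrophage, fibroblast, endothelial and adipocyte markers. The replicate numbers were checked and do not pair the samples. Alternatives were the scaling, the filter, a pseudocount of 64, the mean of all probe sets, the variance trend, a replicate block, the 2 groups alone, and leaving out each array.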

Additional observations from a re-analysis of the deposited data

How the results depend on the processing

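Of 36 changes against vehicle (9 keratins, 4 inhibitors) 24 were called, 15 of them under every setting run, and 9 lost the call under at least 1. Of the 12 not called, 4 were called under at least 1. No called change reversed. Of 54 differences among inhibitors 45 were called, 34 of them under every setting run and 11 lost under at least 1. Single probe sets tested one by one are not among the settings of either count. On another probe set, Krt14 did not pass for U0126 against DAPT (adjusted p = 0.411), PP2 against DAPT (0.307) or PP2 against TAE226 (0.306). Krt6a did not pass on its other probe sets for TAE226 against DAPT (0.104 and 0.232). With median centring 4 keratins were called under TAE226 in place of 7. The TAE226 rises of Krt6a, Krt7 and Krt8 kept their calls with quantile normalization. With 1 array left out, the number called ran from 4 to 5 for DAPT, 5 to 7 for U0126, 5 to 7 for TAE226 and 5 to 6 for PP2, and among the inhibitors from 9 to 9 (U0126 and DAPT), 5 to 7 (TAE226 and DAPT), 7 to 8 (PP2 and DAPT), 6 to 8 (TAE226 and U0126), 7 to 7 (PP2 and U0126) and 6 to 9 (PP2 and TAE226), with 9 to 9 by the F-test. Arrays with the same replicate number did not deviate together (r from -0.24 to 0.20, median 0.01), and with the replicate block 5, 6, 7 and 5 keratins were called for DAPT, U0126, TAE226 and PP2, with the call of Krt5 under U0126 lost (adjusted p = 0.0659). A filter asking for signal above the median on all 15 arrays gave no value for Krt15.

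Uncalled values against vehicle that changed sign were these, and the cause was not tested. Under DAPT, Krt14 was 0.10 with the mean of all probe sets and 0.49 with its dimmer probe set, and Krt8 was 0.031 with quantile normalization. Under U0126, Krt18 was -0.075 with median centring, -0.069 with quantile normalization, and from -0.05 to 0.082 with 1 array left out, below 0 without vehicle replicate 2, U0126 replicate 1 or U0126 replicate 2. Under TAE226, Krt17 was 0.071 with the mean of its probe sets and from -0.186 to 0.081 with 1 array left out, above 0 without vehicle replicate 1 or 2, and Krt18 was -0.065 with median centring. Under PP2, median centring gave -0.15 for Krt7 and -0.068 for Krt8, and Krt18 ran from -0.066 to 0.002 with 1 array left out, above 0 without PP2 replicate 2. Uncalled differences among inhibitors changed sign as well. Over the settings run, Krt8 ran from -0.196 to 0.089 for TAE226 against U0126. Krt18 ran from -0.177 to 0.028 for PP2 against U0126, and Krt19 from -0.086 to 0.073 for TAE226 against DAPT.

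Dim signals limit Krt15 under U0126 and TAE226 and Krt23 throughout, with log2 SDs of 1.42 and 0.50 for Krt15 and up to 1.13 for Krt23.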

Other observations

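Of 38 other keratin genes on the array, 9 were tested. Krt79, a type II keratin, was bright in vehicle (log2 11.82 ± 0.17, n = 3). It fell 3.95-fold under U0126 (adjusted p = 1.68e-10), 1.95-fold under TAE226 (3.23e-06) and 7.95-fold under PP2 (7.93e-13), and was 0.16 from vehicle under DAPT (adjusted p = 0.264). Krt80, which neighbours Krt7, rose by 1.77 under U0126 and 1.39 under TAE226. Krt32 rose by 1.36 under DAPT (adjusted p = 7.17e-07). Krt16, a partner of Krt6a, was dim under DAPT (at least 1.65-fold lower than vehicle) and PP2 (at least 1.55-fold lower). In all, 1 of these 9 rose and 1 fell under DAPT, 1 and 2 under U0126, 2 and 1 under TAE226, and 3 and 2 under PP2, where median centring gave no rise and 3 falls. The others called were Krt88 under TAE226 (0.93), Krt10 under U0126 (-0.31, adjusted p = 0.0317) and PP2 (0.34), and Krt32 (0.40) and Krt81 (0.51) under PP2. Median centring ended the PP2 calls of Krt10, Krt32 and Krt81, and each was also lost without at least 1 array: Krt10 without PP2 replicate 3 (0.055), Krt32 without vehicle replicate 1 (0.0804) or 2 (0.0715) or PP2 replicate 1 (0.115), and Krt81 most of all without vehicle replicate 2 (0.211). The U0126 call of Krt10 was lost when U0126 replicate 2 (0.138) or 3 (0.0895) was left out, as when replicate 1 (0.0988) or 2 (0.0713) of vehicle was. Beside the counts of these keratins, 17.1% of all genes tested rose and 17.5% fell under DAPT, and 19.5% and 21.4% under U0126. The shares were 15.2% and 15.9% under TAE226, and 26.1% and 26.7% under PP2.

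Of 17 genes of squamous cornification 10 were tested, none rising and 3 falling under DAPT, 2 and 3 under U0126, 3 and 1 under TAE226 (2 and 2 under median centring), and 3 and 3 under PP2 (2 and 4). Under DAPT, median centring gave no rise and 4 falls. Of all genes tested, 17.1% rose and 17.5% fell under DAPT, 19.5% and 21.4% under U0126, 15.2% and 15.9% under TAE226, and 26.1% and 26.7% under PP2. The cornified envelope gene Sprr1a rose by 1.84 under PP2 (adjusted p = 5.27e-08), fell by 0.51 under DAPT (adjusted p = 0.0204) and 0.62 under TAE226, and was at least 4.41-fold lower under U0126. The DAPT call was lost without vehicle replicate 1 (adjusted p = 0.0581) or 3 (0.0506) or DAPT replicate 1 (0.0611). Sprr1b was at least 2.58-fold lower under U0126 and at least 2.35-fold lower under PP2. The envelope cross-linking enzyme Tgm1 rose by 2.04 under U0126 and 0.56 under TAE226 (adjusted p = 0.119 under median centring). Sbsn rose by 1.48 under U0126 and 1.38 under TAE226, and Sfn fell by 0.54 under DAPT and 1.32 under PP2. The protease gene Klk7, dim in vehicle, was at least 1.98-fold higher under TAE226 (adjusted p = 0.016), a call lost without vehicle replicate 1 (0.0798) or TAE226 replicate 2 (0.0531). The median changes were -0.18, 0.22, 0.27 and -0.66 for DAPT, U0126, TAE226 and PP2, with 0.015 for TAE226 under median centring.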
